A study of Mus musculus with 3 samples.

Results

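The transcripts of 10 enzymes that build and sulfate heparan sulfate were examined in group 2 innate lymphoid cells (ILC2s), lymphocytes that lack rearranged antigen receptors and make type 2 cytokines. The 10 genes (Ext1, Ext2, Extl3, Ndst1, Ndst2, Glce, Hs2st1, Hs6st1, Hs3st1 and Hs3st3b1) were picked out of 27179 gene IDs by symbol. The genes share an enzymatic role, and the set was selected on the high read count of Hs3st1 in these libraries, so the level of Hs3st1 is described here and not tested. The series holds 1 group of 3 RNA libraries of ILC2s from wild-type C57BL/6 mice, with no treatment labelled. The labels do not name a mouse per library. The design gives 3 mice, so each library was taken as 1 mouse, an assumption behind every spread between mice below. The gate kept cells with KLRG1, CD127, CD90.2 and CD45 on their surface and removed those with B220, CD11c, CD11b, NK1.1, CD8, CD5 or CD3. The sources used here do not give the tissue, age or sex. The libraries are called mouse 1, 2 and 3 after their sample numbers. RNA was read by sequencing of amplified full-length cDNA, a method for few cells that does not mark strand.

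Heparan sulfate is a linear sugar chain that is built in the Golgi on a serine of a core protein, after a short linker has been laid down. EXTL3 starts the chain and the EXT1 and EXT2 complex extends it. NDST enzymes then replace acetyl groups with sulfate, which prepares the chain for the epimerase GLCE and for the 2-O-, 6-O- and 3-O-sulfotransferases. The rare 3-O-sulfate is added last. HS3ST1 is the enzyme best known for making the antithrombin-binding sequence of heparan sulfate and heparin, whereas HS3ST3B1 places the same group in other sugar contexts.

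The libraries held 17819551 to 26374248 counts, and a count of 0 allows up to 0.115 to 0.171 CPM, which are counts scaled to 1000000 per library. These limits, like the intervals below, hold counting error alone. All 10 ILC2 markers were detected, that is, they reached 1 CPM in each library, with summed levels of 17312, 14277 and 13722 CPM in mice 1, 2 and 3. Markers of plasma and B cells were also present, with 8 of 10 detected and sums of 12138, 33887 and 62166 CPM, although Ms4a1 and Pax5 were at 0. Among mast cell markers 3 of 10 were detected (Cpa3, Fcer1a and Hdc; sums of 61.1, 36.1 and 40.6 CPM), and Mcpt1, Mcpt2, Mcpt4, Tpsb2, Tpsab1 and Ms4a2 had no counts. Stromal and endothelial markers were detected for 5 of 10 genes (43.5 to 49.2 CPM in sum, with Cdh5 and Kdr at 0), epithelial markers for 1 of 10 (9.95 to 33.6 CPM, with Krt20, Fabp2, Cdh1 and Muc2 at 0), T cell markers for 3 of 8 (20.8 to 25.4 CPM, with none at 0 in every library) and myeloid markers for 1 of 8 (21.4 to 37.8 CPM, with Adgre1, S100a8 and S100a9 at 0). In such bulk samples, fewer cells of a type and less RNA per cell cannot be told apart. The part of other cells in the values below was not tested.

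Hs3st1 and its relative Hs3st3b1 carry out the same kind of reaction but differed widely in level. The stretch around an annotated start of each gene is shown because these were the 3-O-sulfotransferase genes with counts. Both windows come from RefSeq on GRCm38.p6, run 250 bases before to 50 bases after the start, and have CpG dinucleotides in capitals. The Hs3st1 window is chr5:39644582-39644881 and the Hs3st3b1 window is chr11:63922235-63922534, both on the minus strand.
Hs3st1: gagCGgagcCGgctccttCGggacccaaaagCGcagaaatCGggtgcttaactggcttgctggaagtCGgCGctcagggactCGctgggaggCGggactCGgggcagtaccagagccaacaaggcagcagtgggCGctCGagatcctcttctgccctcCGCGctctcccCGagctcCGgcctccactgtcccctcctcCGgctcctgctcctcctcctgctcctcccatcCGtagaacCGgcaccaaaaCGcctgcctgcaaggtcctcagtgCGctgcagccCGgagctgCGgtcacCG
Hs3st3b1: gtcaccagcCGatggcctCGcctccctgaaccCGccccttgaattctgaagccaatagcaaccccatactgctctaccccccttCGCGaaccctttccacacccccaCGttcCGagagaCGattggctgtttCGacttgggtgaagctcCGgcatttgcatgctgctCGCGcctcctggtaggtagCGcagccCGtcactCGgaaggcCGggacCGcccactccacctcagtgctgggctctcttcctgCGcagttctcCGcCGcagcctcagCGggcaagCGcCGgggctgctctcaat
The Hs3st1 window holds 24 CpG dinucleotides and the Hs3st3b1 window 23, against a median of 7 over 32851 windows of the same length. The counts were at or above those of 81.6% and 80.0% of all windows for Hs3st1 and Hs3st3b1. The GATA letters AGATAA and TGATAA, searched on both strands, were in neither window and in 18.6% of all windows. This pair of windows was nearly equal in CpG content, while the transcript levels of the genes were very unequal. A link between CpG content and level was not tested. A further start of Hs3st1 lies upstream in the GENCODE annotation, and its RefSeq gene also reaches further upstream, to 39645592. The Hs3st3b1 window lies at the outer end of its RefSeq gene, 63922284, so the starts compared are of unlike position. Counts per gene do not show which start was used. RefSeq windows were found for 7 of the 10 genes. Those of the low-level Ext2, Ndst2, Glce, Hs2st1 and Hs6st1 held 18, 20, 30, 32 and 47 CpG dinucleotides.

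Hs3st1 was the dominant transcript of the set in every mouse. Hs3st1 (gene ID 15476; chromosome 5, 39613935 to 39645592, GRCm38.p6, minus strand) had 75354, 35756 and 96680 counts in mice 1, 2 and 3. In mouse 1 these were 0.341% of all counts, with a 95% Wilson interval of 0.3384% to 0.3432%. The share in mouse 2 was 0.201% (0.1986% to 0.2027%), and that in mouse 3 was 0.367% (0.3643% to 0.3689%). The level was 3324, 2034 and 3708 CPM, with a mean of 3022 ± 877 CPM (SD, n = 3). Mouse 2 was the lowest, 1.82-fold below mouse 3.

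Division by the summed exon length, 2.23 kb for Hs3st1, allows genes to be compared. Hs3st1 then had 1491, 912 and 1663 CPM per kb in mice 1, 2 and 3. It ranked 33, 57 and 26 among the 21611 genes with a length, and 35 by the mean. The other 9 enzymes together summed to 8.99, 8.91 and 9.15 CPM per kb. Hs3st1 was thus 166, 102 and 182 times the sum of its partners. It supplied 99.4%, 99.0% and 99.5% of the set's CPM per kb, a mean of 99.3% ± 0.229 (SD, n = 3).

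**Figure D1:**
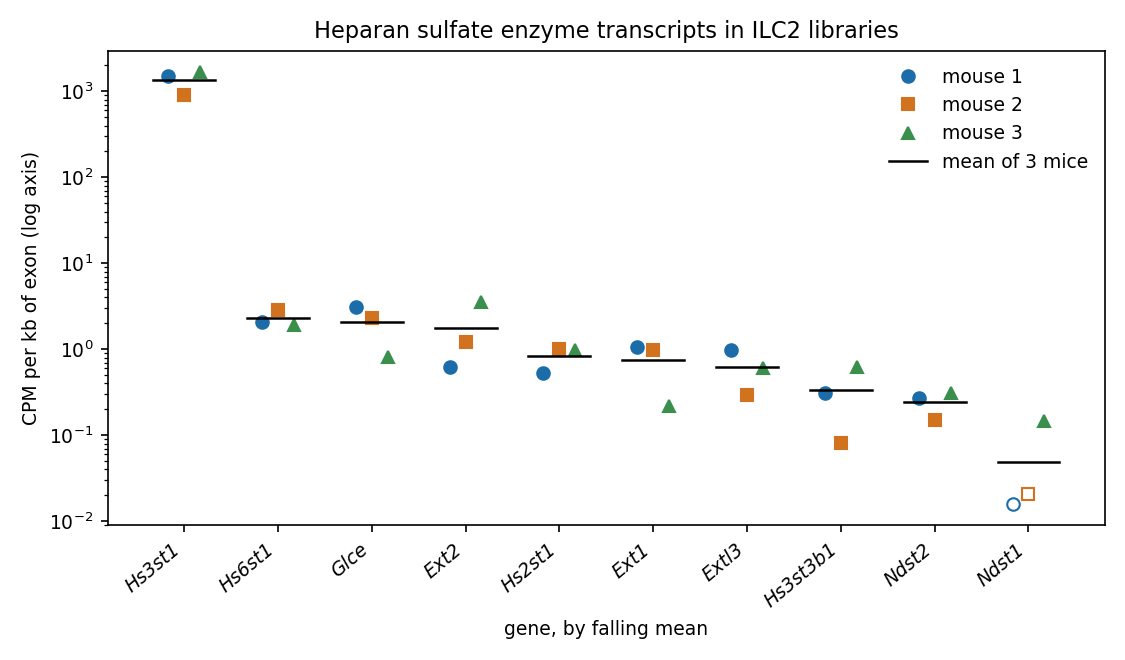
CPM per kb of exon (log axis) of the 10 enzymes, ordered by their mean, with a point per mouse and a bar at the mean of 3 mice; open points mark 0 counts and are drawn at the limit of 3 counts. Hs3st1 lies between 912 and 1663 CPM per kb, and every point of the other 9 genes lies at or below 3.53.

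Hs6st1 was second by the mean, and Hs3st1 lay above it by 9.43, 8.25 and 9.67 on the log2((CPM + 0.5) / kb) scale in mice 1, 2 and 3, a mean of 9.12 ± 0.76 (SD, n = 3). The difference between Hs3st1 and Hs3st3b1 was 11.81, 12.28 and 11.16 in the 3 mice, a mean of 11.75 ± 0.56 on the same scale. Division by coding length in place of exon length lowered these differences to 8.21 and 10.94, and the rank of Hs3st1 to 57.

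The genes nearest to Hs3st1 in level, by Euclidean distance of log2((CPM + 0.5) / kb) over the 3 libraries, were Nfkbia (0.27), Il5 (0.43), Ccr8 (0.51), H2-K1 (0.54) and Ly6e (0.54). Nfkbia encodes an inhibitor of NF-kappaB and had 1361, 1016 and 1470 CPM per kb. Il5, the eosinophil growth factor, had 1613, 904 and 1251 CPM per kb in mice 1, 2 and 3. Genes close in level in each library were sought, so their likeness to Hs3st1 is a description of that choice. H2-K1 belongs to a family of similar class I genes among which reads may have been divided.

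The abundance of Hs3st1 did not extend to the enzymes that act before it. Across the set, 7 of 10 genes were detected at 1 CPM in every library, against 31.1% of the 27179 gene IDs of the table. Without Hs3st1, which was chosen for its level, 6 of 9 were. Of the 13 other isoforms and sulfatases left outside the set, 1 was detected and 8 had no counts. Members were chosen with earlier results of these data known, so the share in the set partly reflects that choice. Only Hs3st1 exceeded 30 CPM in any mouse. The median of the other 9 was 0.750 CPM per kb, against 0.0965 over all genes with a length. Their ranks by mean CPM per kb ran from 5745 for Hs6st1 to 11288 for Ndst1. The 3 genes that missed 1 CPM in some library were Ndst1, Ndst2 and Hs3st3b1.

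**Figure D2:**
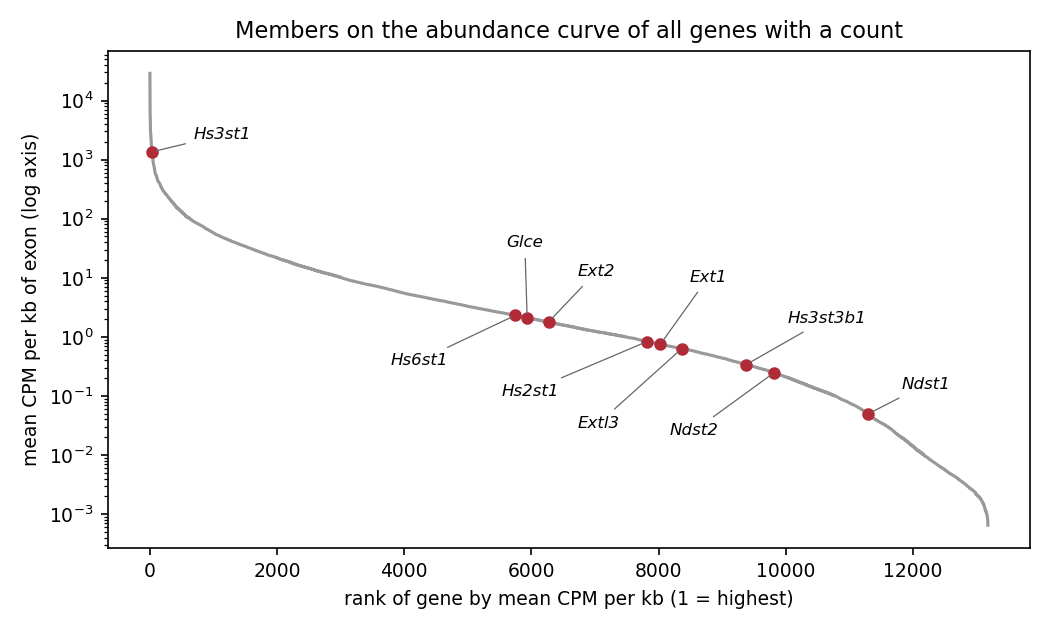
Mean CPM per kb of exon (log axis) against rank for all genes with a count and a length, as a grey line, with the 10 enzymes as red points. Hs3st1 sits at rank 35 on the steep left end, and the other 9 lie between ranks 5745 and 11288.

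Of the polymerising enzymes, all 3 were detected at low levels. Extl3 starts the chain on the linker and had 136, 31 and 95 counts, or 6.00, 1.76 and 3.64 CPM, in mice 1, 2 and 3. Ext1 (chromosome 15, 53068261 to 53346183) had 8.56, 7.85 and 1.76 CPM. Ext2 (chromosome 2, 93695631 to 93822568), its partner in the polymerase complex, had 4.54, 8.76 and 25.8 CPM. The partners were therefore at opposite extremes in mouse 3, where Ext1 was lowest and Ext2 highest.

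The within-library difference of Ext1 minus Ext2 was 0.70, -0.29 and -3.68 on the log2((CPM + 0.5) / kb) scale. Its mean of -1.09 ± 2.3 (SD, n = 3) did not exceed the spread, with p = 0.75 in an exact two-sided sign-flip permutation test, whose smallest possible p with 3 libraries is 0.25. Without mouse 3 the mean turned to 0.21. Ext2 followed the order of the plasma and B cell marker sum given above, lowest in mouse 1 and highest in mouse 3. Igkc, Igha and Jchain made up most of that sum (4822, 1742 and 5527 CPM in mouse 1). Mzb1, Cd79a and Tnfrsf17 kept the same order, whereas Derl3 (3.84, 2.9 and 2.53 CPM) and Tnfrsf13b (3.97, 1.14 and 4.18 CPM) did not. The part of those cells in the Ext2 level was not tested.

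The N-deacetylase and N-sulfotransferase genes, whose products act first among the enzymes that modify the chain, were the scarcest by mean CPM per kb. In mouse 2 Hs3st3b1, at 0.0811 CPM per kb, was below Ndst2, at 0.15. Ndst1 had 0, 0 and 32 counts in mice 1, 2 and 3, so that its 1.23 CPM in mouse 3 stood against at most 0.132 and 0.171 CPM in mice 1 and 2. Ndst2, the isoform best known from heparin synthesis in mast cells, had 28, 12 and 37 counts, or 1.24, 0.682 and 1.42 CPM. Ndst2 was above 0 in all 3 libraries and Ndst1 in mouse 3 alone.

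Ndst1 minus Ndst2 was -2.66, -2.11 and -1.02 on the log2((CPM + 0.5) / kb) scale, a mean of -1.93 ± 0.84 (SD, n = 3). Ndst1 was lower in 3 of 3 libraries, at p = 0.25 in the exact two-sided sign-flip permutation test, the smallest it can give. The size depends on the constant added, since Ndst1 had 0 counts in mice 1 and 2, and with 0.1 CPM added the mean was -3.17. With coding length in place of exon length it was -1.06. Ndst3 had no counts, and Ndst4 had 1 count in mouse 1. All 4 Ndst genes together had 29, 12 and 69 counts, while Hs3st1 had between 35756 and 96680.

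The middle steps were better represented. Glce, the epimerase that turns glucuronic into iduronic acid, had 21.4, 15.8 and 5.48 CPM in mice 1, 2 and 3. Like Ext1, it was highest in mouse 1 and lowest in mouse 3. Hs2st1, which sulfates mainly that iduronic acid, had 4.32, 8.25 and 7.98 CPM and was lowest in mouse 1. Hs6st1, a 6-O-sulfotransferase, had 11.5, 16.1 and 10.8 CPM, the steadiest of the set with a coefficient of variation (CV) of 22.6%.

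Of the paralogues outside the set, Hs6st2 was the single detected gene among 13 other isoforms and sulfatases. It had 1.63, 17.6 and 8.09 CPM in mice 1, 2 and 3, a 10.8-fold range. Hs6st2 supplied 9.18%, 43.7% and 34.8% of the summed CPM per kb of Hs6st1 and Hs6st2. The main 6-O isoform was thus Hs6st1 in each mouse, by a margin that was wide in mouse 1 and narrow in mouse 2. In CPM, without division by length, Hs6st2 was the higher in mouse 2.

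Among the 3-O-sulfotransferase genes, Hs3st1 stood nearly alone. Hs3st3b1 (chromosome 11, 63884693 to 63922284) had 35, 7 and 80 counts, or 1.54, 0.398 and 3.07 CPM, in mice 1, 2 and 3. Like Hs3st1, it was lowest in mouse 2 and highest in mouse 3. Mouse 2 was lowest, or tied with mouse 3, for 4 of the 10 enzymes, beside 5119 of all 27179 gene IDs, of which 12087 had no counts. Ties of mouse 2 with mouse 1, as for Ndst1, are left out of such counts here and below. Hs3st2, Hs3st3a1, Hs3st4, Hs3st5 and Hs3st6 had no counts in any library.

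Hs3st3a1 and Hs3st3b1 are near-copies over part of their length. They share a run of 401 identical bases, and 8.56% of the 50-base windows of the Hs3st3b1 transcripts also occur in Hs3st3a1. The sources used here do not say how reads from that stretch were assigned, so the division between this pair is uncertain. For Hs3st1, 0.989% of such windows occur in other genes (Gm11033 and Fgd4). For Hs6st1 the share was 6.37%, mostly in Gm37335, which is antisense to it and overlaps 8.1% of its exon length. For Ext1, Ext2, Extl3, Ndst1, Ndst2 and Hs2st1 no window was shared.

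The remaining heparan sulfate genes outside the set were at or near 0. Extl1, Ndst3 and Hs6st3 had no counts, and Extl2 had 0, 1 and 9. The sulfatases, which remove 6-O-sulfate at the cell surface, were also scarce. Sulf1 had 1 count in mouse 3, and Sulf2 had 22, 21 and 3 counts, or 0.971, 1.19 and 0.115 CPM.

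Below Hs3st1, the order of levels per kb was Hs6st1, Glce, Ext2, Hs2st1, Ext1, Extl3, Hs3st3b1, Ndst2 and Ndst1, but most neighbours could not be separated. Of the 8 neighbouring pairs below Hs3st1, 2 kept their order in 3 of 3 libraries, Ext2 over Hs2st1 (a log2 difference of 0.76 ± 0.90, SD, n = 3) and Ndst2 over Ndst1 (1.93 ± 0.84). The mean difference exceeded its SD for Ndst2 over Ndst1, and barely for Extl3 over Hs3st3b1 (0.77 ± 0.76), which held in 2 of 3 libraries. The other pairs differed by 0.08 to 0.37 on average, with SDs of 0.65 to 2.18.

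Single enzymes varied between mice while the sum without Hs3st1 differed little in these 3 libraries. The 9 enzymes other than Hs3st1 summed to 59.1, 59.6 and 61.2 CPM in mice 1, 2 and 3. In mouse 3 a high Ext2 (25.8 CPM) stood beside a low Glce (5.48 CPM) and a low Ext1 (1.76 CPM). The sum was not a planned result, and its evenness was not tested. Ext1 and Glce were highest in mouse 1, whereas Ext2 and Hs3st3b1 were highest in mouse 3. Among the 9 genes with counts in every mouse, the CV ran from 22.6% for Hs6st1 and 29.0% for Hs3st1 to 80.2% for Hs3st3b1 and 86.5% for Ext2.

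**Figure D3:**
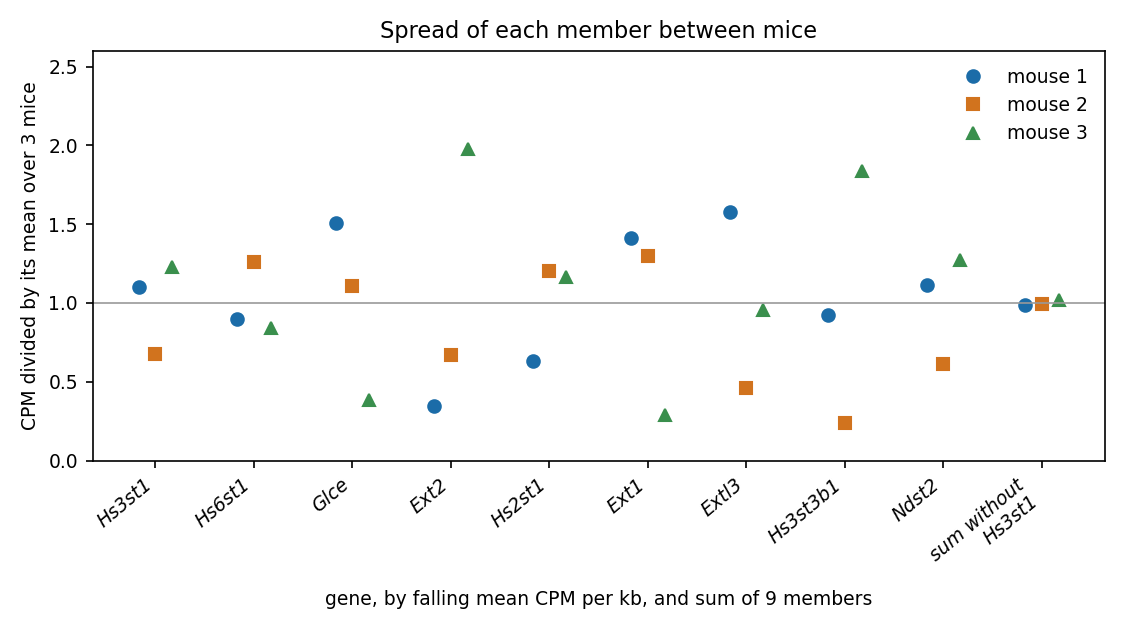
CPM of each enzyme in each mouse divided by its mean over 3 mice, with the sum of the 9 enzymes other than Hs3st1 at the right; Ndst1, with counts in mouse 3 alone, is in the sum but not drawn singly. Ext2 and Ext1 spread in opposite directions, and the 3 points of the sum (59.1, 59.6 and 61.2 CPM) nearly coincide.

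None of these spreads passed a test against genes of like abundance. The filter on low counts passed 8 of the 10 enzymes, all but Ndst1 and Hs3st3b1. Of those 8, 0 exceeded the abundance trend in edgeR's test of quasi-dispersions with the adjusted p below 0.05 (Benjamini-Hochberg over 9175 genes). Of all genes tested, 0.207% did. At an unadjusted p below 0.05 there were also 0 of 8, against 4.37% of all genes. limma and the DESeq2 dispersion outliers likewise called 0 of 8, beside 17 and 25 of the 9175 genes.

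Ext2 came closest in edgeR, with a quasi-dispersion 1.79 above the trend on the log2 scale (unadjusted p = 0.0745, adjusted p = 0.977), followed by Hs3st1 at 1.56 (unadjusted p = 0.101, adjusted p = 0.977). Hs6st1 lay lowest, at -2.23. In simulations of this test, 9 of 100 genes raised 8-fold in 1 library were recovered and 88 of 100 raised 64-fold, so a rise of 8-fold was mostly missed.

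**Figure D4:**
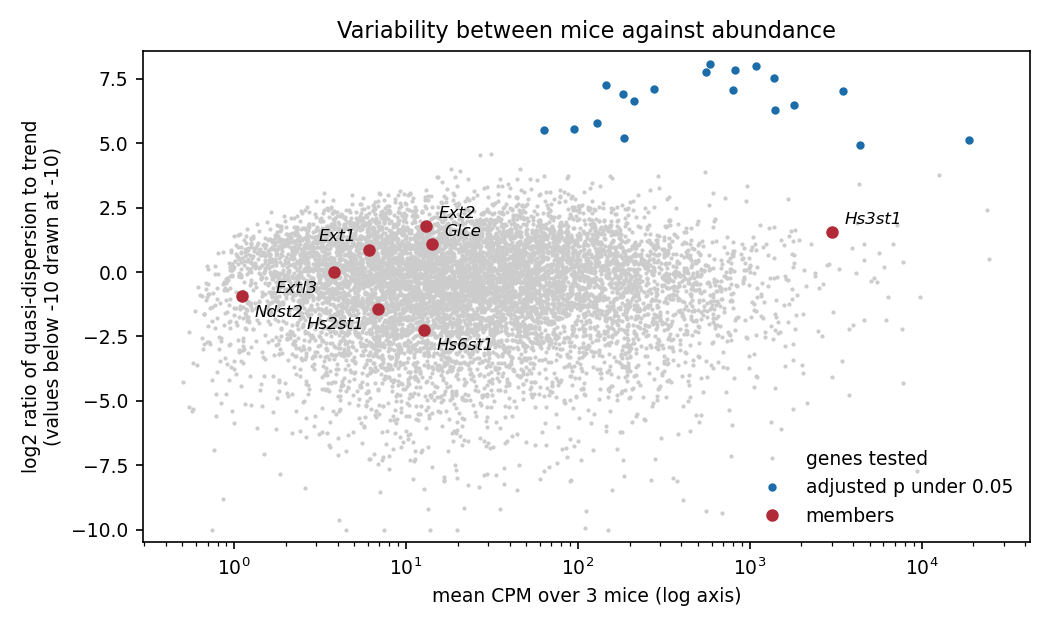
Log2 ratio of each gene's quasi-dispersion to the abundance trend, against mean CPM (log axis), for 9175 tested genes in grey, those with an adjusted p below 0.05 in blue and 8 enzymes in red. The enzymes lie from -2.23 (Hs6st1) to 1.79 (Ext2), inside the grey cloud.

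The other genes of the pathway were read from lists by role. Of 73 such genes 29 were detected (39.7%, beside the 31.1% of all gene IDs), with a median of 0.216 CPM per kb. Genes of sulfate and sugar supply were the most complete, with 10 of 11 detected and a median of 2.08 CPM per kb. Linker synthesis had 3 of 7 detected, degradation 5 of 10, core proteins 5 of 16 and the chondroitin branch, which starts from the same linker, 5 of 16.

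**Figure D5:**
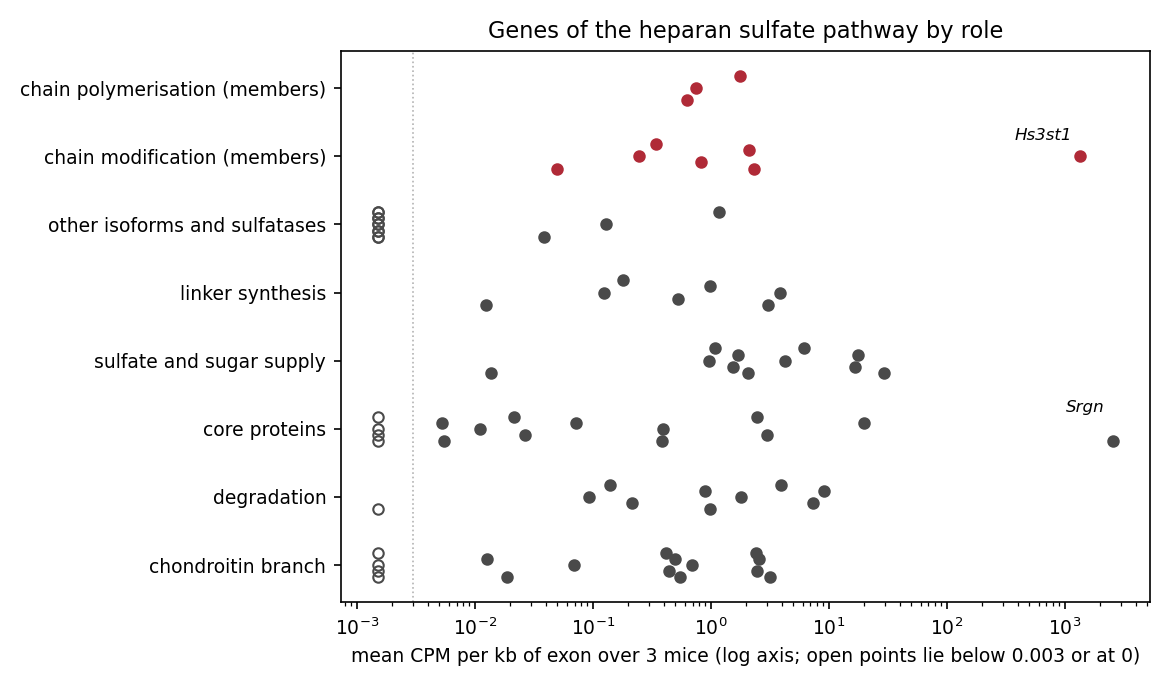
Mean CPM per kb of exon over 3 mice (log axis) for genes of each role, 1 point per gene, with the 10 enzymes in red in the upper 2 rows and open points for genes below 0.003 CPM per kb or at 0. Hs3st1 (1355) and the core protein Srgn (2564) stand far to the right of all other genes drawn, whose highest is Ugp2 at 29.3.

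Of the linker genes, B3galt6, B3gat3 and Fam20b were the 3 detected. B3galt6, which adds the second galactose, was even, with 13.0, 12.5 and 11.2 CPM in mice 1, 2 and 3. B3gat3, which adds the glucuronic acid, had 6.53, 2.96 and 14 CPM, and the xylose kinase gene Fam20b had 10.2, 9.55 and 6.17 CPM. The xylosyltransferase genes, singled out here after their values were seen, open the pathway. Xylt2 had 0, 65 and 68 counts, and Xylt1 had 0, 3 and 5, so that neither had a count in mouse 1. The other undetected linker genes, B4galt7 (31, 1 and 4 counts) and the xylose phosphatase gene Pxylp1 (1, 39 and 1), were also named after their values were seen.

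In supply, Ugp2, which makes UDP-glucose, had 62.1, 126 and 81.8 CPM in mice 1, 2 and 3. Slc35b2 and Slc35b3, for the Golgi transporters of the sulfate donor PAPS, had 42.0, 32.2 and 90.5 CPM and 106, 80.3 and 106 CPM. Both were lowest in mouse 2, as was Hs3st1. Mouse 2 was lowest, or tied with mouse 3, for 19 of the 73 pathway genes. The same held for 5119 of all 27179 gene IDs, of which 12087 had no counts. Of the PAPS synthases, also singled out after their values were seen, Papss1 had 1.5, 5.23 and 7.36 CPM and Papss2 had 0, 0 and 4 counts. Transporter transcripts were therefore well above those of the synthases, also per kb, where Slc35b2 had at least 10.4 CPM per kb and Papss1 at most 2.41.

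Core proteins were dominated by Srgn, which encodes serglycin, the proteoglycan of secretory granules that carries heparin in mast cells and mainly chondroitin sulfate in other blood cells. Srgn had 2811, 2937 and 1942 CPM per kb in mice 1, 2 and 3, or 1.89, 3.22 and 1.17 times Hs3st1. Of the 10 mast cell markers, 3 were detected beside it. Hdc had 38.3, 11.3 and 24.6 CPM, Cpa3 had 18.0, 4.72 and 11.4 CPM, and Fcer1a was highest in mouse 2. Mcpt4 and Tpsb2 were at 0, and Cma1 had 1 count in mouse 2. Whether mast cells added to the Srgn level was not tested. Cd44, some isoforms of which carry heparan sulfate, had 117, 150 and 135 CPM. The 12 genes of syndecans, glypicans, perlecan and agrin, the usual carriers of heparan sulfate, summed to 5.41, 4.32 and 8.16 CPM per kb.

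Of those carriers, Sdc2 had the highest mean per kb, with 11.2, 3.64 and 17 CPM in mice 1, 2 and 3. In mouse 2 Sdc4, at 6.82 CPM, was above it, also per kb. Sdc2 was lowest in mouse 2 and highest in mouse 3, the order of Hs3st1. A link between them was not tested, and 19 of the 73 pathway genes were lowest in mouse 2 or tied with mouse 3. Gpc2 and Gpc4 had no counts. Sdc1, a syndecan typical of plasma cells and named after its values were seen, had 1, 3 and 16 counts beside the plasma and B cell marker sums of 12138, 33887 and 62166 CPM. The part of those cells in the Sdc1 counts was not tested.

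Lysosomal breakdown genes led the degradation list. Gusb, the beta-glucuronidase gene, had 34.7, 31.9 and 33.8 CPM in mice 1, 2 and 3, with a CV of 4.28%. Hgsnat, an acetyltransferase needed to degrade heparan sulfate, had 46.6, 9.61 and 34.2 CPM, and Ids, the iduronate 2-sulfatase, had 29.6, 15.2 and 15.9 CPM. Hpse2 had no counts. Hpse, the heparanase that cuts chains outside the lysosome as well, was singled out after its values were seen and had 0, 115 and 75 counts.

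In the chondroitin branch, Csgalnact2, which commits the linker to chondroitin, had 20.1, 23.9 and 8.05 CPM in mice 1, 2 and 3. Extl3, which commits the same linker to heparan sulfate, averaged 0.627 ± 0.350 CPM per kb, against 3.19 ± 1.52 for Csgalnact2 (SD, n = 3 each), and Extl3 was lower in 3 of 3 mice. Chsy1, a chondroitin polymerase gene, was even at 10.5, 8.93 and 11.4 CPM. Chst12, a 4-O-sulfotransferase gene, was uneven at 12, 0.569 and 5.71 CPM. Chst7, Chst13 and Chst14 had no counts.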

How the data were processed

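Libraries of sorted ILC2s from 3 mice were analysed. The deposited table holds raw read counts per Entrez gene ID. The authors used STAR 2.3.0 and CASAVA 1.8.2 with the mm10 build, per the submitters' processing notes. The sources used here do not name the counting program, the annotation or the handling of multi-mapping reads.

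Of 27179 IDs, 25275 were named from the RefSeq table of GRCm38.p6 (the build of mm10). The unnamed held 0.186% to 0.242% of counts and stayed in library sizes. CPM used TMM factors from edgeR 4.0.16 (R 4.3.3). Lengths are summed exons of GENCODE M21, found for 21611 IDs. Log values add 0.5 CPM before division by length. Pairs of libraries differed by a chi-square of 133 to 226 per degree of freedom, far beyond sampling noise. No label says that library preparation was separate, so the spread may be partly technical.

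Variability was tested with an intercept-only edgeR quasi-likelihood fit, filterByExpr (minimum count 10) and a one-sided F test, adjusted by Benjamini-Hochberg with a threshold of 0.05. It was tested on simulated data with the same dispersion for every gene, where it gave 0 false calls. Alternatives were plain totals, DESeq2 1.42.0, limma 3.58.1, a robust prior, other lengths, minima and constants, and leaving out each mouse.

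Members and lists were chosen with earlier results of these data known. Genes named are all members, all other heparan sulfate isoforms, the top 3 by CPM per kb and those without counts in each pathway list, and the 5 nearest to Hs3st1, with exceptions marked. No protein sequences were used here.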

Additional observations from a re-analysis of the deposited data

How the results depend on the processing

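No comparison between groups was possible because all 3 libraries belong to a single group. Pairing was used only between genes within a library. A result on Hs3st1 held if its mean or rank shifted by less than 1 SD over the 3 libraries. The Ndst and Ext differences held if their sign stayed, and counts of detected genes if they changed by at most 1.5-fold. Variability calls held if 0 members were called. Of 64 comparisons of a result with an alternative, 55 held, 8 moved and 1 reversed. Library-size factors cancel, or nearly so, in the share of Hs3st1, its rank and differences between genes of a library. Agreement of those results under plain totals and DESeq2 size factors was therefore largely fixed in advance and adds no support. Coding length gave 10.94 for Hs3st1 minus Hs3st3b1, 8.21 for Hs3st1 minus the next gene, 98.8% for the share of Hs3st1 and rank 57, since the ratio of exon to coding length differs between genes. Without division by length the first 2 were 10.61 and, with Glce as the next gene, 7.83. A minimum of 5 CPM left 3 members (Glce, Hs6st1 and Hs3st1) in place of 7. Without each mouse in turn, Hs3st1 minus the next gene was 8.72 to 9.97 (against Ext2 without mouse 2, Glce without mouse 3), and Ext1 minus Ext2 was -1.99 to 0.21 (reversed without mouse 3). Among results that held when each mouse was left out, Ndst1 minus Ndst2 was -2.38 to -1.56, members detected were 7 to 9 (9 without mouse 2) and the rank was 29 to 41. By sign, Ndst1 minus Ndst2 (-1.93 ± 0.84) also held with coding length (-1.06) and with 0.1 CPM added (-3.17). Both shifts were above 1 SD. With 2 libraries the smallest exact sign-flip p is 0.5. Variability calls stayed at 0 members in all 8 alternatives, but few genes were called at all. The robust prior called 0 of 9175 genes, so 0 members was fixed there. The other settings called at most 31 genes (of 9841, without mouse 1), so 0 members is near the share over all genes. The smallest unadjusted p values in edgeR's test were 0.0176 (Ext2 without mouse 2) and 0.0487 (Hs3st1 without mouse 3). Statements on Ndst2 (12 to 37 counts per library), similar genes and genes with 0 counts rest on few or no reads. A count of 0 in 1 library could stand beside many in others. Xylt2 had 0, 65 and 68 counts and Hpse 0, 115 and 75 in mice 1, 2 and 3. The cause of such unlike counts was not tested.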
